A study of Arabidopsis thaliana with 6 samples.

Results

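Unwounded leaves of wounded Arabidopsis thaliana plants, called systemic leaves here, were set against leaves of unwounded control plants, 10 min after wounding. The 4 arrays labelled as leaf systemic and leaf control, with 2 biological replicates each, were chosen by their sample titles from the 6 arrays of the study, and the transcripts were read on 22746 probe sets of an Affymetrix expression array. All plants were of the ecotype that the labels spell Colombia, were 5 weeks old and were grown in soil with 10 h of light and 14 h of darkness at 21 °C. In the wounded plants, 3 rosette leaves were crushed with tweezers over the midvein, and the systemic leaves were unwounded leaves of wounded plants. The labels do not say whether the local and systemic pools came from the same plants, so tests between them assume separate ones. The control plants had no wounded leaf. Each array was 1 pool of leaves from 3 plants, so a value is an average over the cell types of a leaf and over plants. The remaining 2 arrays, of the wounded (local) leaves, are given only beside genes named for the systemic leaves. Values are log2 levels after RMA, an array normalization that sets all arrays to a common distribution, so a difference of 1 is a 2-fold change.

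A leaf that is crushed sends signals to distant leaves through the vasculature, as changes of membrane potential and waves of cytosolic calcium. Distant leaves then make jasmonate, a fatty acid hormone of wound and herbivore defence, and transcribe early genes for transcription factors, calcium sensors, ubiquitin ligases and cell wall proteins. The comparison of systemic with control leaves addresses which transcripts changed in leaves that were not injured themselves.

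Across probe sets the 2 systemic arrays correlated at r = 0.996 and the 2 control arrays at 0.995, and the array medians lay between 6.24 and 6.29. Leaf identity was checked with photosynthesis genes. RCA, which activates Rubisco, was at 14.59 and 14.58 in systemic leaves and at 14.57 and 14.58 in control leaves, and the antenna protein gene LHCB4.1 was at 14.25 and 14.22 in systemic leaves and at 14.25 and 14.26 in control leaves, near the top of the scale on every array. The measured markers of guard cells (FMA), phloem (SWEET11), trichomes (TRY) and roots (EXPA7) did not pass the test, each being 1 gene of a longer list, no xylem marker had a probe set of its own, and those of dividing cells are described with the falls. As a measure of RNA integrity, the 3' minus 5' difference of GAPDH was 1.503 and 1.08 on the systemic arrays, against 1.09 and 0.97 on the control arrays, while that of ubiquitin was 1.23 and 1.26 on the systemic arrays and 1.33 and 1.25 on the control arrays, and that of actin was 3.82 and 3.62 on the systemic arrays and 3.97 and 3.51 on the control arrays.

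At 10 min after wounding, 1076 probe sets (4.73% of those tested) were higher and 835 (3.67%) lower in systemic than in control leaves. Together these were 8.4%, and rises outnumbered falls at every size counted. The control leaves came from other plants, and no leaf was sampled before wounding. A difference between plants that stood before wounding and a response to wounding therefore cannot be told apart. Rises of at least 2-fold numbered 309 (1.36%) and falls of that size 140 (0.615%). At 4-fold the counts were 74 rises (0.325%) and 16 falls (0.0703%), and at 8-fold 17 rises (0.0747%) and 2 falls (0.00879%). Calls are those with a Benjamini-Hochberg adjusted p under 0.05 from limma, fitted over all probe sets with the spread shared by all 6 arrays. A probe set is read as a gene only where the array's annotation lists 1 gene for it, which holds for 50.8% of the calls. Leaving out systemic replicate 1 left 537 rises and 250 falls, leaving out systemic replicate 2 left 687 and 394, leaving out control replicate 2 left 687 and 732, and leaving out control replicate 1 left 814 and 432. In a fit of the 4 systemic and control arrays alone, without the spread of the local arrays, BZIP53, MGL, CSLC04, EXLB1, AUR3, JAL22, ATG8H, ALDH7B4, AT1G33760 and AT4G27652, whose values are given with their groups, missed the threshold (adjusted p from 0.0538 to 0.0749). The labels call the arrays biological replicates, and with 2 arrays in each group their number limits the precision.

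The systemic arrays differed in strength, and the difference grew with the size of the rise. Counted without a test, 317 probe sets lay at least 1 log2 unit above both control arrays on systemic replicate 1, and 225 on systemic replicate 2, with 197 on both, which is 62.1% of the first set and 87.6% of the second. Below both control arrays by as much lay 136 probe sets on replicate 1 and 90 on replicate 2, with 74 on both (54.4% and 82.2%). Among the 166 called rises under 0.5, the median of replicate 1 minus replicate 2 was 0.01. It was 0.08 among the 601 rises between 0.5 and 1, 0.28 among the 235 between 1 and 2, 0.86 among the 57 between 2 and 3, and 1.15 among the 17 of 3 or more. Replicate 1 was the higher array for 55 of those 57 and for all 17. Over all probe sets it was higher for 47.1%, and the median difference was -0.01.

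**Figure D1:**
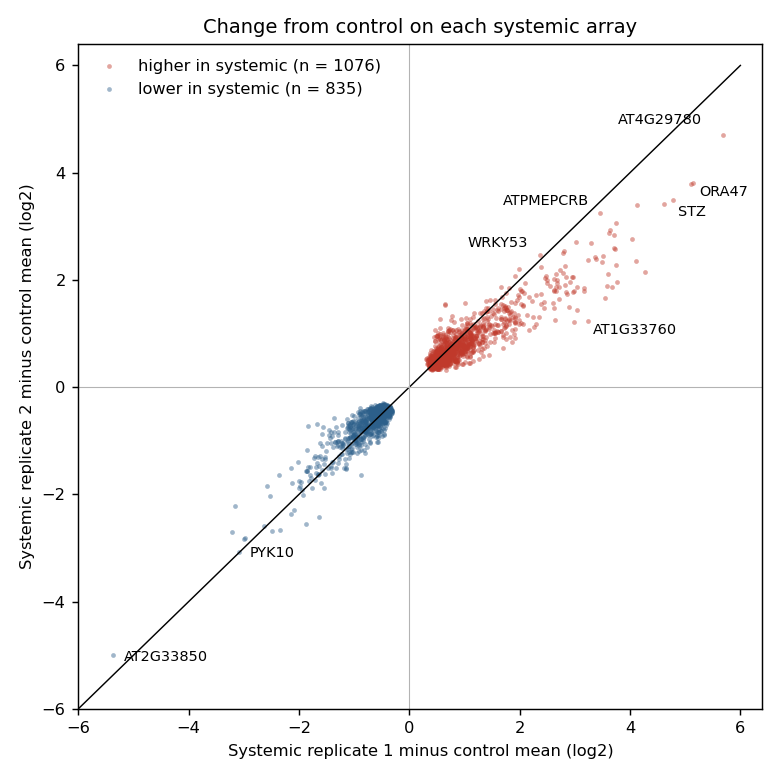
Change from the control mean on systemic replicate 1 (x axis, log2) and on systemic replicate 2 (y axis, log2) for the 1076 probe sets called higher and the 835 called lower in systemic leaves, with the line of equal change and 8 genes labelled. The largest rises lie under the line, with a larger change on replicate 1, while the called falls lie closer to it.

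Falls also differed between the arrays. In the counts without a test above, more probe sets lay below both control arrays on replicate 1 than on replicate 2, as they did above them. Of the 140 called falls of at least 2-fold, replicate 1 was the higher array for 51, with a median of replicate 1 minus replicate 2 of -0.13, against 266 of the 309 rises of that size, with a median of 0.38. Over all calls the fall on replicate 2 had a median of 92.9% of that on replicate 1, against 86.8% for the rises, both on the log2 scale. The deepest falls ended near the lower quartile of the arrays, where a level may be background. Only 9 of the 140 falls of at least 2-fold had a systemic mean under the lower quartile. The median systemic level of the 140 was 6.54. Whether background limited how far the systemic arrays could differ was not tested. The control arrays were spread more where transcripts fell. Of the 140 falls of at least 2-fold, 39 had control arrays that differed by 0.5 or more and 7 by 1 or more, against 35 and 0 of the 309 rises of that size. A wide gap between arrays of a group raises the spread the test uses, so calls favour probe sets with small gaps. GAPDH's 3' minus 5' difference was also the higher on systemic replicate 1, and its part in the unequal strength was not tested.

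The arrays differed most in transcripts that stood higher in the wounded leaves. Of the rises of at least 2-fold, 126 were in probe sets where the local leaves stood above the systemic leaves by 1 or more, and these rose by a median of 2.197 on replicate 1 and 1.499 on replicate 2. Where the local leaves stood above by less than 1 (122 probe sets) the medians were 1.44 and 1.16. In the 61 probe sets where the local leaves were lower than the systemic leaves, the medians were 1.31 and 1.17, and replicate 1 was the higher array for 34 of them, against 120 of the 126. Over all probe sets, 4.77% were called higher in local and 4.93% higher in systemic leaves when these groups were compared. These are descriptions without a test, since the grouping and the rises use the same systemic arrays.

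**Figure D2:**
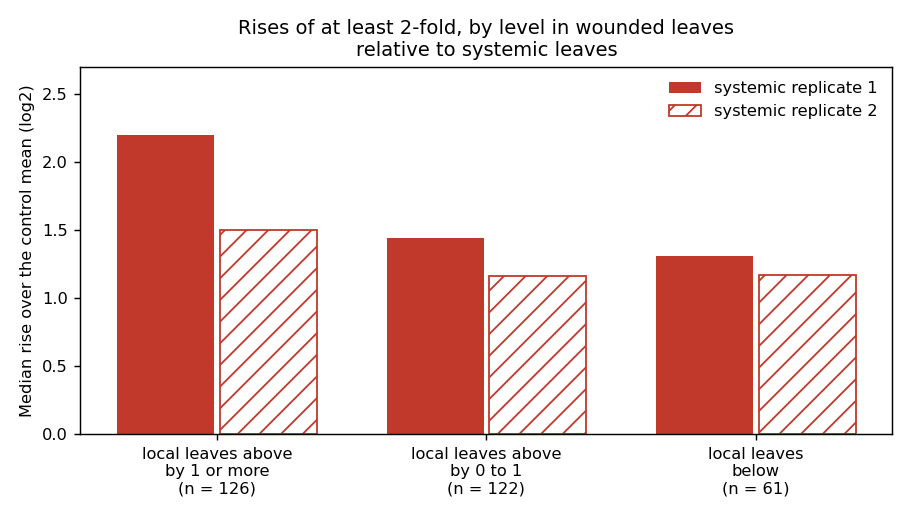
Median rise over the control mean (log2) on systemic replicate 1 (filled bars) and systemic replicate 2 (hatched bars) for probe sets called higher by at least 2-fold, grouped by whether wounded local leaves were above or below systemic leaves. The bars stand at 2.197 and 1.499 in the first group and at 1.31 and 1.17 in the last.

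Genes for transcription factors were among the largest rises. ORA47, an AP2/ERF factor that activates jasmonate synthesis genes, was at 10.76 and 9.42 in systemic leaves, against 5.77 and 5.45 in control leaves. It rose 22.3-fold (4.48 ± 0.36 log2, SE, adjusted p = 0.00067 by limma), by 5.15 on systemic replicate 1 and 3.81 on systemic replicate 2. STZ, also named ZAT10, a zinc finger repressor of abiotic stress responses, was at 10.03 and 8.74 in systemic leaves and at 5.42 and 5.09 in control leaves, a 17.5-fold rise (4.13 ± 0.35, adjusted p = 0.00077). Both genes were higher still in the wounded leaves, at 12.21 and 12.35 for ORA47 and 11.97 and 12.11 for STZ, with local minus systemic differences of 2.19 (adjusted p = 0.01) and 2.66 (adjusted p = 0.0042). WRKY53, a regulator of leaf senescence and defence, did not share the gap between the systemic arrays: it was at 7.70 and 7.81 there, against 5.66 and 5.02 in control leaves (2.42 ± 0.20, adjusted p = 0.00075). WRKY22, a factor of immune signalling, was at 8.20 and 7.89 in systemic leaves and at 6.48 and 5.94 in control leaves (1.84 ± 0.23, adjusted p = 0.0037). Of the 7 WRKY genes measured, these 2 rose and none fell (28.6%, beside 8.4% of all probe sets). The median difference over the 7 was 0.07, beside -0.02 over all probe sets.

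Members of the bZIP family, grouped here after their values were seen, rose by less. HYH, the homolog of the light-signalling factor HY5, was at 6.93 and 6.99 in systemic leaves, against 5.87 and 5.29 in control leaves (1.38 ± 0.17, adjusted p = 0.0032). Among the 14 genes with a bZIP symbol, 3 rose and none fell (21.4%, beside 8.4% of all probe sets), with a median of 0.18. BZIP60, a factor of the unfolded protein response, rose by 0.77, BZIP34 by 0.73 and BZIP53, a regulator of amino acid metabolism genes, by 0.64. BZIP28 and BZIP17, the other stress sensors of the endoplasmic reticulum, differed by 0.30 and 0.24 and did not pass. Without systemic replicate 1 none of the 14 passed (adjusted p = 0.0645 for BZIP60, 0.0543 for BZIP34 and 0.186 for BZIP53), and BZIP53 was also lost without systemic replicate 2 (0.0957) and without control replicate 2 (0.0973), where its difference was 0.42. HYH kept its call in every alternative run.

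Of the jasmonate list, only 4 genes had a probe set of their own, too few to describe the list as a whole. Over all probe sets 4.73% were called higher. Of the 4 genes 3 rose, with a median difference of 1.02. Besides ORA47 these were OPCL1, which activates a jasmonate precursor for its shortening in peroxisomes, and JMT, which makes methyl jasmonate. OPCL1 was at 8.81 and 8.20 in systemic leaves and at 6.81 and 7.35 in control leaves (1.42 ± 0.22, adjusted p = 0.0081), and at 9.87 and 9.88 in wounded leaves. JMT was dim, at 5.37 and 5.52 in systemic leaves against 4.70 and 4.96 in control leaves (0.62 ± 0.11, adjusted p = 0.015), and it did not pass without systemic replicate 1 (adjusted p = 0.0537), systemic replicate 2 (0.0878) or control replicate 1 (0.0659). JRG21, the fourth, differed by -0.31 and did not pass.

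Among genes for calcium sensors, proteins that bind calcium and pass its signal on, 3 of 8 measured rose (37.5%, beside 8.4% of all probe sets). None was called lower, with differences down to -0.98 and a median of 0.15. CML23 was at 7.27 and 6.75 in systemic leaves, against 5.64 and 5.12 in control leaves (1.63 ± 0.21, adjusted p = 0.0035). CML38 was at 6.56 and 6.00 in systemic leaves and 5.42 and 5.20 in control leaves (0.97 ± 0.19, adjusted p = 0.021), while wounded leaves held 11.07 and 10.74. CML42 was at 7.69 and 7.65 in systemic leaves and 6.84 and 6.79 in control leaves (0.86 ± 0.15, adjusted p = 0.012). CML37, a close relative of CML38, did not pass, with 3.92 and 3.79 in systemic leaves and 3.88 and 3.81 in control leaves, and the wounded leaves had 7.23 and 7.30. With 1 array left out, between 1 and 3 of the 8 passed. CML23 kept its call, CML38 lost it without systemic replicate 1 (adjusted p = 0.1) and without control replicate 1 (0.0504) or 2 (0.0937), and CML42 without systemic replicate 1 (0.0766) or 2 (0.0557) or control replicate 2 (0.0505).

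The U-box and RING ubiquitin ligases are enzymes that tag proteins for breakdown, some of which damp immune signalling. They had 6 rises and no fall among 19 measured genes (31.6%, beside 8.4% of all probe sets), with a median of 0.05. PUB25, which targets the immune kinase BIK1, was at 7.31 and 7.10 in systemic leaves, against 6.25 and 5.84 in control leaves (1.16 ± 0.16, adjusted p = 0.0044). Its partner PUB26 was at 8.37 and 7.97 in systemic leaves and 7.35 and 7.10 in control leaves (0.95 ± 0.16). PUB23, PUB24, ATL5 and PUB19 rose by 1.08, 0.93, 0.59 and 0.55. The gap to the wounded leaves was uneven: PUB23 was at 6.81 and 6.17 in systemic and 10.06 and 10.33 in local leaves, and PUB19 at 6.02 and 6.28 in systemic and 10.03 and 9.84 in local leaves, whereas PUB25 was at 7.15 and 7.38 in local leaves, a difference from the systemic leaves that did not pass (adjusted p = 0.9). Between 2 and 4 of the 19 passed with 1 systemic or control array left out, 2 without control replicate 1, 3 without control replicate 2, 3 without systemic replicate 1 and 4 without systemic replicate 2. PUB25 passed in each.

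RALF peptides are secreted signals that bind receptor kinases of the cell wall, and they were grouped after their values were seen. Of 11 measured, 3 rose and none fell (27.3%, beside 8.4% of all probe sets). RALFL22 was at 10.42 and 10.34 in systemic leaves, against 9.14 and 9.30 in control leaves (1.16 ± 0.10, adjusted p = 0.00077), and RALFL33 was at 11.88 and 11.70 in systemic leaves and 10.87 and 10.69 in control leaves (1.01 ± 0.11, adjusted p = 0.0017). These 2 were bright and nearly equal on both systemic arrays. RALFL32 rose by 0.77, but not without systemic replicate 2 (adjusted p = 0.13) or control replicate 2 (0.122), and the other 8 lay between -0.05 and 0.13. THE1, a receptor kinase that monitors the wall, was at 10.09 and 9.85 in systemic leaves and 9.26 and 9.01 in control leaves (0.83 ± 0.13, adjusted p = 0.0077), and the peptide receptor PSY1R rose by 0.61. Neither passed once systemic replicate 1 was left out (adjusted p = 0.0564 for THE1, 0.0605 for PSY1R). SRC2, a C2-domain protein of cold signalling, was among the brightest rises, at 12.34 and 12.15 in systemic leaves against 10.65 and 10.73 in control leaves (1.55 ± 0.11, adjusted p = 0.00046). PTI1-4, a protein kinase of oxidative signalling, rose by 1.32 ± 0.16.

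Among genes that act on the cell wall, rises were called in 1 of 5 pectin enzymes and 7 of 29 expansins and xyloglucan endotransglucosylases. They were also called in 1 of 7 cellulose and callose synthases and 2 of 22 TBL genes. The medians were 0.01, 0.11, 0.01 and -0.02, in that order. Over all probe sets 4.73% were called higher. The lists were not tested against this share, and 1 or 2 calls in a list of 5, 7 or 22 genes may be background. ATPMEPCRB, pectin methylesterase 41, removes methyl groups from pectin. It was at 9.18 and 8.98 in systemic leaves, against 5.93 and 5.54 in control leaves, a 10.2-fold rise (3.35 ± 0.27, adjusted p = 0.00067). The wounded leaves had 6.29 and 7.21, and local minus systemic was -2.33 (adjusted p = 0.0025). The other 4 measured pectin enzyme genes differed by at most 0.38 and did not pass. EXPB1, a beta-expansin that loosens walls, was at 9.72 and 9.78 in systemic leaves and 8.40 and 8.40 in control leaves (1.35 ± 0.24, adjusted p = 0.014), and at 8.09 and 8.99 in wounded leaves (local minus systemic -1.21, adjusted p = 0.021).

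The list of expansins and xyloglucan endotransglucosylases, which loosen or rejoin wall polymers, had 7 rises and no fall among 29 measured genes. These are 24.1%, beside 8.4% of all probe sets called, and the median was 0.11. The expansin-like genes EXLA2 and EXLA1 led, with EXLA2 at 8.45 and 8.12 in systemic leaves against 6.36 and 6.65 in control leaves (1.79 ± 0.14, adjusted p = 0.00062). EXLA1 was at 11.10 and 10.71 in systemic leaves and 9.21 and 9.66 in control leaves (1.47 ± 0.18, adjusted p = 0.0032). EXLB1 was stronger on replicate 2, at 7.52 and 8.42 in systemic leaves and 6.94 and 6.81 in control leaves (1.096), and without systemic replicate 2 its difference was 0.65 and did not pass (adjusted p = 0.0635), nor did it pass without control replicate 1 (0.101) or 2 (0.131). XTH16 and XTH32 rose by 0.79 and 0.76, and XTH16 was also lower in wounded than in systemic leaves (-0.69, adjusted p = 0.021). EXLA3 rose by 0.43 at levels near the lower quartile of the arrays (4.51 and 4.41 in systemic and 4.03 and 4.03 in control leaves), where a level may be background. With 1 systemic or control array left out, 3 to 6 of the 29 passed. EXLA1, EXLA2 and XTH32 passed each time, while EXPB1 and EXLA3 missed the threshold without any 1 of the 4 arrays (adjusted p from 0.0542 to 0.0757 and from 0.0725 to 0.159). XTH16 missed it without systemic replicate 2 (0.0581) or control replicate 2 (0.0605).

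EXO, or EXORDIUM, a secreted protein of brassinosteroid-dependent cell expansion, was already bright in control leaves, at 9.20 and 8.52, and stood at 11.84 and 10.65 in systemic leaves (2.38 ± 0.36, adjusted p = 0.0071, but 0.0519 with robust variance moderation). TBL26 and TBL28, of a family of enzymes that add acetyl groups to wall polysaccharides, rose by 1.15 and 0.78, and TBL39 fell by 0.52. Of the 22 measured TBL genes 13.6% were called, beside 8.4% of all probe sets. TBL26 did not pass without systemic replicate 1 (adjusted p = 0.0605) or 2 (0.0648), nor did TBL39 (0.0712 and 0.0574). CSLC04, which makes the xyloglucan backbone, rose by 0.74 and missed the threshold without systemic replicate 1 (0.47, adjusted p = 0.143), control replicate 1 (adjusted p = 0.155) or control replicate 2 (0.0589).

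**Figure D3:**
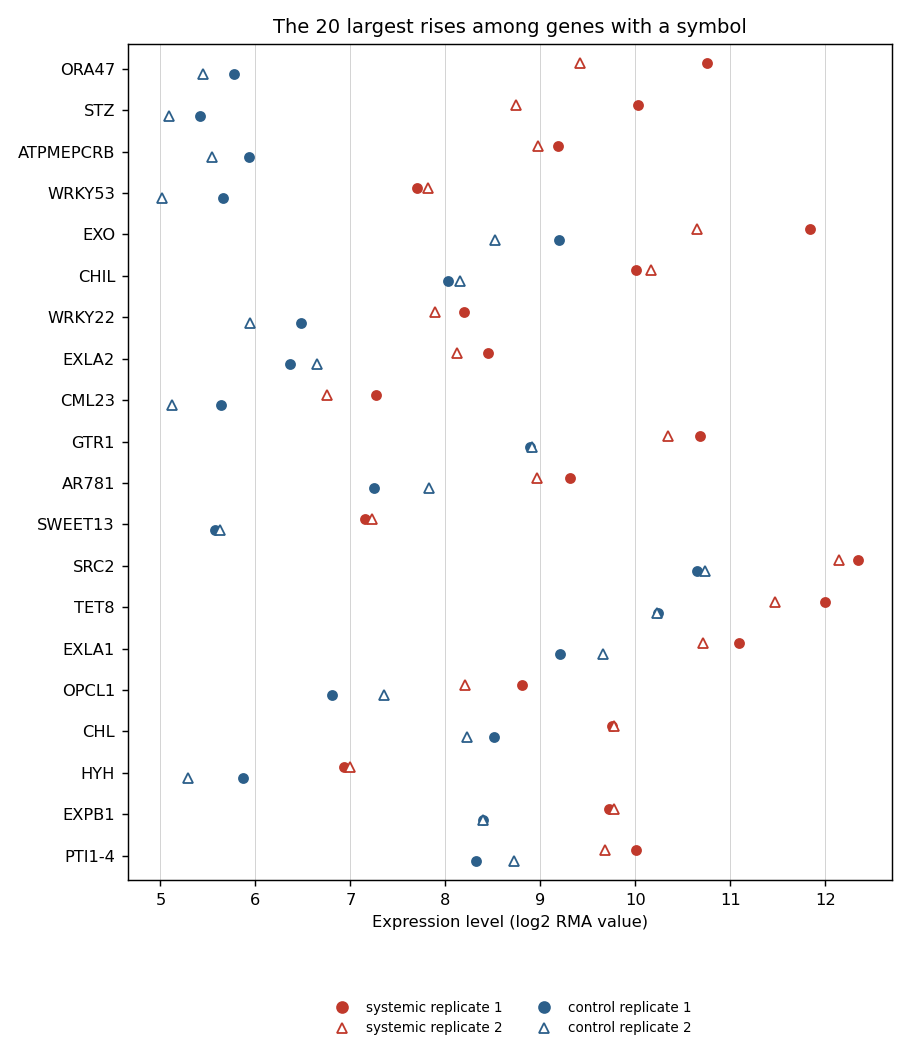
Expression level (x axis, log2 RMA value) of the 20 largest rises among genes with a symbol (rows), with systemic arrays in red above control arrays in blue, circles for replicate 1 and triangles for replicate 2. The systemic points lie right of the control points in every row, as in all 1076 called rises. The systemic arrays stand apart by 1.34 for ORA47 and 1.29 for STZ but by 0.11 for WRKY53.

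Transporters and metabolic enzymes made up another set of symbol-named rises. AT5G52050, which the gene table also names DTX50, a carrier that exports abscisic acid, was at 9.11 and 7.64 in systemic leaves, against 5.57 and 5.16 in control leaves (8.06-fold, 3.01 ± 0.39, adjusted p = 0.004). GTR1, an importer of glucosinolates, the mustard oil precursors, was at 10.68 and 10.35 in systemic leaves and 8.89 and 8.92 in control leaves (1.61 ± 0.12, adjusted p = 0.00054), while its relative GTR2 differed by 0.02. SWEET13, a sucrose exporter of the leaf veins, was at 7.15 and 7.23 in systemic leaves and 5.57 and 5.63 in control leaves (1.59 ± 0.09, adjusted p = 0.00033), and 1 of 14 measured SWEET genes passed (7.14%, near the 8.4% of all probe sets), and 2 of 14 without control replicate 1. ATSPS4F, a sucrose-phosphate synthase, rose by 1.19 ± 0.16. CHIL, a chalcone isomerase-like protein that aids flavonoid synthesis, was at 10.01 and 10.17 in systemic leaves, 9.25 and 9.64 in wounded leaves and 8.03 and 8.15 in control leaves. Its rise of 2.00 ± 0.14 (adjusted p = 0.00043) was larger than that in wounded leaves (local minus systemic -0.64, adjusted p = 0.029). UGT78D1, which adds rhamnose to flavonols, rose by 0.77, the only rise beside 3 falls among 50 UDP-glycosyltransferases, and missed the threshold without systemic replicate 2 (adjusted p = 0.0547) or control replicate 1 (0.0501).

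Further bright transcripts rose, CHL equally on both systemic arrays. CHL, a chloroplast lipocalin that protects membranes from oxidation, was at 9.76 and 9.78 in systemic leaves and 8.51 and 8.23 in control leaves (1.40 ± 0.13, adjusted p = 0.001). TET8, a tetraspanin of secreted vesicles, was at 12.00 and 11.47 in systemic leaves and 10.24 and 10.23 in control leaves (1.50 ± 0.16, adjusted p = 0.0017). LHCB4.3, a variant of a photosystem antenna protein, was at 9.17 and 8.76 in systemic leaves and 8.05 and 7.97 in control leaves (0.95), although it failed without systemic replicate 1 (adjusted p = 0.0846) or control replicate 2 (0.0601). It was 1 call among 10 photosystem genes (10.0%, near the 8.4% of all probe sets), whose median difference was 0.01. MGL, an enzyme of methionine breakdown, rose by 0.73 and was lower in wounded than in systemic leaves (-1.25, adjusted p = 0.0051), but it missed the threshold with the replicate number as a block (adjusted p = 0.0509), without either systemic array (0.0605 and 0.196) and without control replicate 2 (0.156).

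Many of the strongest rises were in genes that the annotation gives only by locus, with no role stated here. AT4G29780 rose the most of all named genes, at 11.39 and 10.41 in systemic leaves against 5.65 and 5.76 in control leaves (36.5-fold, 5.19 ± 0.27, adjusted p = 0.00023). AT3G48650, listed as a transcribed pseudogene, was at 9.26 and 8.55 in systemic leaves and 5.68 and 5.57 in control leaves (3.28 ± 0.22). AT2G27080 was at 9.88 and 9.13 in systemic leaves and 6.25 and 6.26 in control leaves (3.25 ± 0.21). In all 3 the control arrays differed by at most 0.12. AT3G04640 was at 10.51 and 9.36 in systemic leaves and 6.98 and 6.60 in control leaves (3.15 ± 0.32), AT1G32920 at 11.05 and 10.00 in systemic leaves and 7.61 and 7.48 in control leaves (2.98 ± 0.30), and AT4G27280 at 11.18 and 10.19 in systemic leaves and 8.08 and 7.52 in control leaves (2.89 ± 0.30). The adjusted p of the last 5 lay between 0.00038 and 0.0016.

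The next loci showed both ends of the range of strength. AT5G16200 was at 8.16 and 7.89 in systemic leaves and 5.40 and 5.30 in control leaves (2.68 ± 0.12, adjusted p = 0.00014), and AT1G19020 at 9.22 and 9.07 in systemic leaves and 6.85 and 6.81 in control leaves (2.32 ± 0.12, adjusted p = 0.00023), both nearly level between the systemic arrays. AT1G06000 was higher on replicate 2, at 10.16 and 10.37 in systemic leaves and 8.01 and 8.33 in control leaves (2.09). At the other end, AT1G33760 was at 7.62 and 5.63 in systemic leaves and 4.25 and 4.52 in control leaves, a rise of 3.23 on systemic replicate 1 and 1.24 on systemic replicate 2 (2.24 ± 0.52, adjusted p = 0.038). Without systemic replicate 1 its difference was 1.24, and it missed the threshold without control replicate 1 (adjusted p = 0.139) or 2 (0.0941). AT4G27657, AT4G27654 and AT4G27652 rose by 3.76 on systemic replicate 1 and 1.97 on systemic replicate 2, by 3.59 on systemic replicate 1 and 1.89 on systemic replicate 2, and by 2.99 on systemic replicate 1 and 1.22 on systemic replicate 2. AT4G27652 was at 1.22 without systemic replicate 1, and it missed the threshold without control replicate 1 (adjusted p = 0.0978) or 2 (0.0973), as AT4G27657 did without control replicate 2 (0.0507). With robust variance moderation, which limits the pull of unusually variable probe sets, all 4 loci missed it (adjusted p from 0.0895 to 0.206). In wounded leaves these 4 loci were at 9.98 to 12.05, above both systemic arrays. Over the 40 largest rises named, replicate 1 was the higher array for 37, and the rise on replicate 2 had a median of 73.5% of that on replicate 1.

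The falls were led by a locus without a role here. AT2G33850 was at 3.71 and 4.07 in systemic leaves, against 8.74 and 9.41 in control leaves, a difference of -5.19 ± 0.21 (adjusted p = 0.00013), and at 3.94 and 3.82 in wounded leaves. Its systemic level lies under the lower quartile of the arrays, about 4.4, where a level may be background. Whether background limited the size of its fall was not tested. AT4G29030 was at 4.89 and 5.06 in systemic leaves and 8.03 and 7.74 in control leaves (-2.91 ± 0.13), AT3G05600 at 4.07 and 4.23 in systemic leaves and 7.02 and 7.07 in control leaves (-2.89 ± 0.10), and AT5G33370 at 4.58 and 4.37 in systemic leaves and 6.68 and 7.44 in control leaves (-2.59 ± 0.22), with adjusted p between 5.6e-05 and 0.00077. Systemic arrays below both control arrays were a condition for naming a fall. In these 4 the mean of the wounded leaves differed from that of the systemic leaves by at most 0.20. Their wounded leaves lay below both control arrays as well. AT3G62550 differed in this, with 7.36 and 8.12 in systemic leaves, 9.49 and 9.03 in wounded leaves and 10.51 and 9.40 in control leaves (-2.21 ± 0.37, adjusted p = 0.01), and it did not pass without systemic replicate 1 (adjusted p = 0.0693) or when variances were moderated robustly (0.0669).

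Of the 28 measured genes in the list of the endoplasmic reticulum body, 7 fell and 1 rose (28.6% called, beside 8.4% of all probe sets). The list also holds the wider beta-glucosidase and jacalin families, and its other members did not pass. The endoplasmic reticulum body is a compartment of Brassicaceae that stores beta-glucosidases for defence. PYK10, its main beta-glucosidase, was at 4.23 and 4.25 in systemic leaves, against 6.91 and 7.72 in control leaves (-3.08 ± 0.23, adjusted p = 0.0005). NAI2, which is needed to form the bodies, was at 4.61 and 4.95 in systemic leaves and 6.48 and 7.00 in control leaves (-1.97 ± 0.18, adjusted p = 0.00096). The jacalins JAL22 and JAL33, lectins of the PYK10 complex, fell by 0.67 and 0.59 at dim levels. The median of the 28 was -0.12. Of the wider beta-glucosidase family, BGLU16 fell by 0.73, BGLU44 by 0.67 and BGLU15 by 0.56, while BGLU40 was at 9.36 and 9.08 in systemic leaves and 8.40 and 8.47 in control leaves and rose by 0.79. NAI1, the factor that drives PYK10 and NAI2, was dim on all arrays, and its difference of -0.12 did not pass (adjusted p = 0.54). Between 5 and 8 of the 28 passed with 1 array left out. PYK10, NAI2, BGLU16 and BGLU40 passed each time, whereas JAL22 (adjusted p up to 0.192), JAL33 (up to 0.118), BGLU44 (up to 0.115) and BGLU15 (up to 0.0862) each missed without systemic replicate 1 and without at least 1 of the other arrays.

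**Figure D4:**
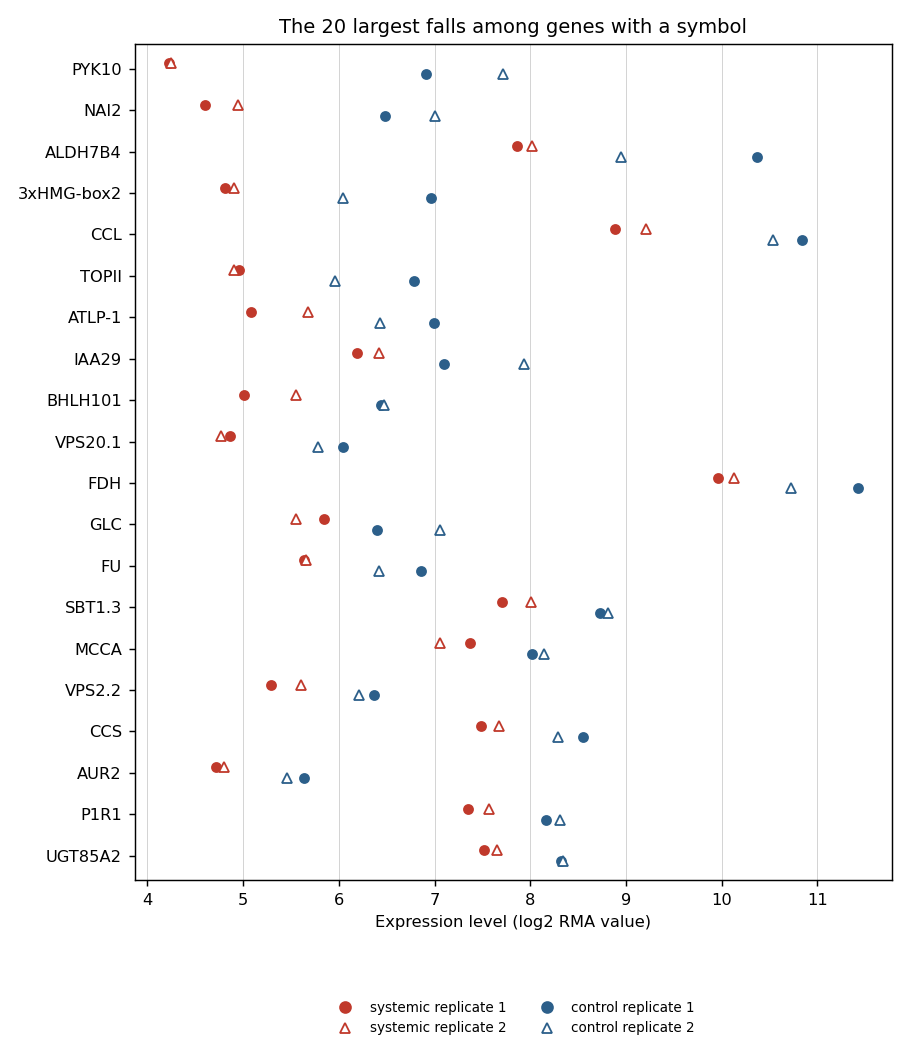
Expression level (x axis, log2 RMA value) of the 20 largest falls among genes with a symbol (rows), with systemic arrays in red above control arrays in blue, circles for replicate 1 and triangles for replicate 2. Systemic points lie left of control points in every row, as in all 835 called falls. The control arrays stand apart by 1.42 for ALDH7B4, 0.91 for 3xHMG-box2 and 0.82 for TOPII.

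The measured markers of dividing cells, 3 of 11 listed, were lower in systemic leaves. They were the Aurora kinases, which phosphorylate histones in mitosis. AUR1 was at 5.90 and 5.80 in systemic leaves, against 6.56 and 6.49 in control leaves (-0.67 ± 0.10, adjusted p = 0.0061). AUR2 was at 4.71 and 4.80 in systemic leaves and 5.63 and 5.46 in control leaves (-0.79 ± 0.10, adjusted p = 0.0037), and AUR3 at 4.60 and 4.59 in systemic leaves and 5.10 and 4.91 in control leaves (-0.41 ± 0.10, adjusted p = 0.043). A list of 17 genes of mitosis and DNA replication was put together after the values were seen. Of these, 10 fell and none rose (58.8%, beside 8.4% of all probe sets called), with a median of -0.43. They include 3xHMG-box2, a protein of mitotic chromosomes, at 4.81 and 4.90 in systemic leaves and 6.96 and 6.05 in control leaves (-1.65 ± 0.25), and topoisomerase TOPII, at 4.96 and 4.90 in systemic leaves and 6.78 and 5.96 in control leaves (-1.44 ± 0.23). Histone genes did not pass. In whole leaves, fewer cells of a type and less RNA per cell cannot be told apart.

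The calls of this list depend on single arrays. Without systemic replicate 1, 3 of the 17 passed, without systemic replicate 2 or control replicate 1, 5 each, and without control replicate 2, 7. AUR1 and AUR2 passed each time. AUR3 missed without systemic replicate 1 (adjusted p = 0.168), systemic replicate 2 (0.156) or control replicate 1 (0.17), TOPII without systemic replicate 1 (0.0554) or 2 (0.0525), and 3xHMG-box2 without systemic replicate 1 (0.05). Most of the systemic levels lay between 4.1 and 5.1, near the lower quartile. SPCH, which starts the stomatal lineage, was dim as well, with 4.76 and 4.70 in systemic leaves and 5.52 and 5.40 in control leaves (-0.73 ± 0.10, adjusted p = 0.0039). UBC20, a ubiquitin-conjugating enzyme of the cell cycle, was at 6.68 and 6.69 in systemic leaves and 7.48 and 7.32 in control leaves (-0.71 ± 0.10, adjusted p = 0.0044), and both kept their calls. FU, a kinase of cell plate formation, had 2 probe sets that disagreed: 1 fell by 0.99 and the other differed by -0.05.

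Genes for the breakdown of leucine and other branched-chain amino acids were also grouped after their values were seen. Of these, 4 of 8 fell and none rose, with a median of -0.40. Over all probe sets 3.67% were called lower, and the list was not tested against this share. MCCA, a subunit of methylcrotonyl-CoA carboxylase, was at 7.37 and 7.06 in systemic leaves, against 8.01 and 8.14 in control leaves (-0.86 ± 0.12, adjusted p = 0.0057). IVD, the dehydrogenase of the step before, was at 6.70 and 6.72 in systemic leaves and 7.52 and 7.26 in control leaves (-0.68 ± 0.11, adjusted p = 0.0093). ALDH6B2 and ETFBETA, an electron carrier of this pathway, fell by 0.57 and 0.44, and MCCB, the partner of MCCA, differed by -0.34 and did not pass. With 1 systemic or control array left out, 2 or 3 of the 8 passed, MCCA each time. IVD missed without systemic replicate 1 (adjusted p = 0.0607), ALDH6B2 without systemic replicate 2 (0.111) or control replicate 2 (0.0866), and ETFBETA without any 1 of the 4 arrays (0.0696 to 0.131).

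Further falls touched nutrient and stress metabolism. ATG8F, a ubiquitin-like protein of autophagy membranes, was bright, at 9.90 and 9.82 in systemic leaves and 10.64 and 10.51 in control leaves (-0.72 ± 0.10, adjusted p = 0.0044). The 8 measured autophagy genes were grouped after their values were seen, so their shared direction may follow partly from that choice. All lay below 0, between -0.72 and -0.27. Besides ATG8F only ATG8H passed (-0.38), and over all probe sets 3.67% were called lower. ATG8H did not pass with any systemic or control array left out, where its difference lay between -0.40 and -0.36. TMT1, a sugar importer of the vacuole, was at 8.10 and 8.05 in systemic leaves and 8.63 and 8.88 in control leaves (-0.68 ± 0.11, adjusted p = 0.0083). BHLH101, a transcription factor of iron deficiency, was at 5.01 and 5.56 in systemic leaves, 7.01 and 6.76 in wounded leaves and 6.44 and 6.47 in control leaves (-1.18 ± 0.18, adjusted p = 0.0068), so the wounded leaves did not share its fall (local minus systemic 1.60, adjusted p = 0.002). FDH, formate dehydrogenase, fell by 1.03, with 9.96 and 10.12 in systemic leaves and 11.42 and 10.72 in control leaves, and the wounded leaves lay between the control arrays at 10.90 and 10.88 (local minus systemic 0.85, adjusted p = 0.038), but it missed the threshold without systemic replicate 1 (0.119) or 2 (0.0627), and without control replicate 1 its difference was -0.68. ALDH7B4, a stress-induced aldehyde dehydrogenase, was at 7.86 and 8.02 in systemic leaves, while the control arrays were at 10.37 and 8.95. Its difference of -1.72 ± 0.38 was -1.01 without control replicate 1, and it missed the threshold without systemic replicate 1 (adjusted p = 0.152) or 2 (0.101) and with robust variance moderation (0.131).

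In the auxin list 2 of 14 genes fell and 1 rose (21.4% called, beside 8.4% of all probe sets), with a median of -0.07. IAA29, a repressor of auxin response, was at 6.19 and 6.42 in systemic leaves, against 7.10 and 7.93 in control leaves (-1.21 ± 0.24, adjusted p = 0.019). GH3.3, which conjugates auxin to amino acids, fell by 0.73, and IAA18 rose by 0.55. IAA29 and GH3.3 missed the threshold without systemic replicate 1 (adjusted p = 0.12 and 0.0552) or 2 (0.0581 and 0.0724), IAA29 was -0.79 without control replicate 2, and IAA18 missed it without systemic replicate 1 (0.115) or either control array (0.0504 and 0.0692). Without systemic replicate 1 none of the 14 passed. Among the UDP-glycosyltransferases, UGT85A2 was at 7.52 and 7.65 in systemic leaves and 8.32 and 8.34 in control leaves (-0.74 ± 0.10, adjusted p = 0.0039). UGT85A4 and UGT72E1 fell by 0.71 and 0.59, but UGT85A4 missed without systemic replicate 2 (adjusted p = 0.0513) and UGT72E1 without either systemic array (0.0618 and 0.0578). The 4 calls among 50 are 8.0%, near the 8.4% of all probe sets. CCL, a CCR-like protein, was bright. It was at 8.88 and 9.21 in systemic leaves and 10.84 and 10.54 in control leaves (-1.64 ± 0.16, adjusted p = 0.0014 by limma).

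Several families gave no call. None of 24 cytochrome P450 genes, 10 syntaxin and exocyst genes, 8 histone genes and 10 glutaredoxins and thioredoxins passed, where 8.4% of all probe sets did, so that few or no calls among lists of these sizes are near the background, and the median difference of the P450 genes was 0.03. Without control replicate 2, 2 of the P450 genes passed, and 1 histone gene and 1 glutaredoxin or thioredoxin.

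**Figure D5:**
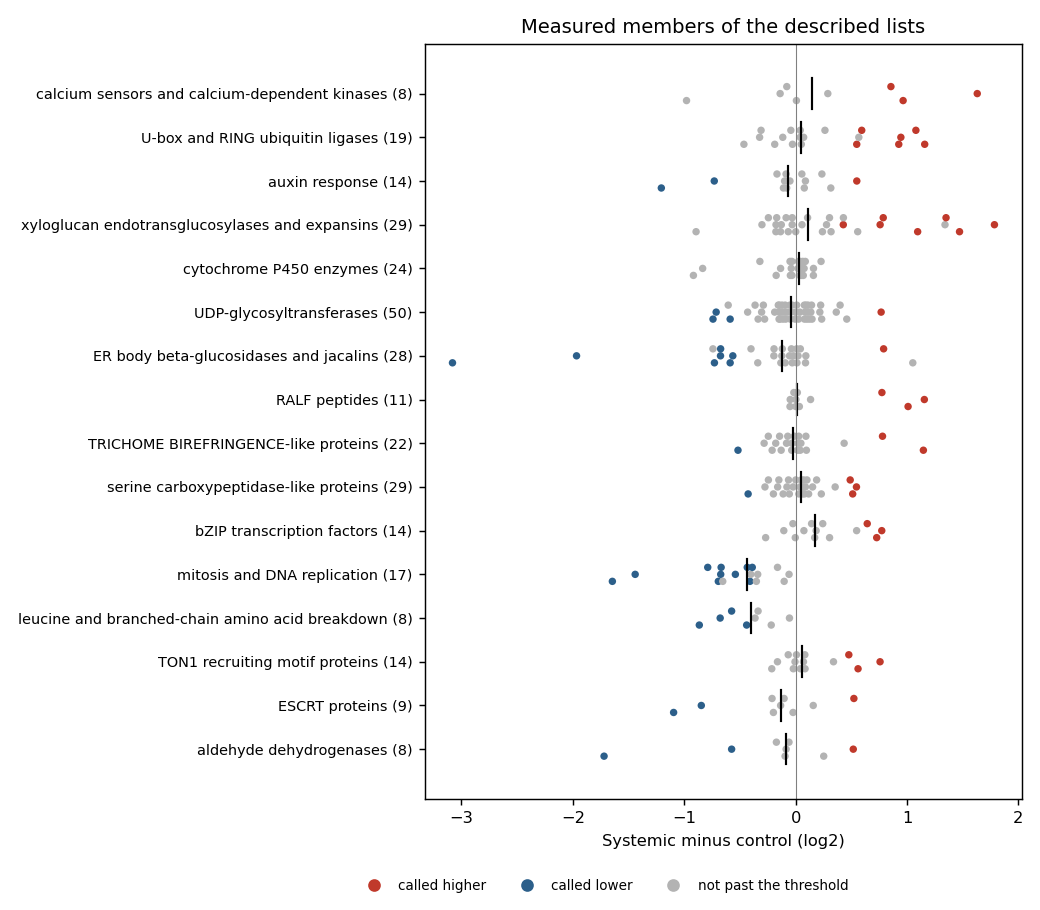
Systemic minus control difference (x axis, log2) of each measured member of the described lists (rows, number measured in brackets), with calls in red (higher) and blue (lower), other members in grey and the list median as a black bar. The last 9 rows were put together after the values were seen. Ubiquitin ligases and expansins show rises with no called fall, and mitosis genes and leucine breakdown show falls with no called rise.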

How the data were processed

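Total RNA (6 µg) of each of 6 leaf pools was amplified from the 3' end in a single cycle, per the labels' protocols. The deposited log2 values are RMA output, and the submitters' processing notes name Affymetrix Expression Console with no version. The table has no detection calls. Of 22810 probe sets, 64 controls were left out, and no filter was set on dim signals. Names come from the platform annotation, updated with the TAIR10.1 gene table: 13513 probe sets had 1 gene, 503 several and 8730 none listed.

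The test was limma (version 3.58.1, R 4.3.3) on group means of all 6 arrays, two-sided and with no block for replicate number (3 residual and 4.85 prior degrees of freedom). Benjamini-Hochberg adjustment covered all 22746 probe sets. Errors are moderated SEs. The fit was tested on simulated data, where nearly all changes of 2-fold or more were recovered, most changes of 0.5 log2 were missed, and the share of false calls was above the nominal rate of the threshold. Named genes are the 40 largest rises and 25 largest falls with 1 gene and groups apart, up to 6 called members of each list, and symbol-named calls singled out after their values were seen. All members and the 38 lists were chosen with earlier results of these data known, and 12 further families after the values were seen. Of the 38 lists, 10 had no measured member. The probe set with the highest mean stood for its gene. Lists are described without a test. A motif search planned for promoters was not run.

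The labels do not say what a replicate number marks. Replicate 1 minus replicate 2 correlated over probe sets at 0.02 between systemic and control, 0.199 between systemic and local and 0.137 between control and local arrays, so with 2 numbers a pairing is not established and the fit has no block.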

Additional observations from a re-analysis of the deposited data

How the results depend on the processing

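Counts of 1076 rises, 835 falls, and 309 rises and 140 falls of at least 2-fold changed with the probe sets and arrays used, and the cause was not tested beyond the smaller number of probe sets or arrays. With only probe sets that have 1 listed gene they were 577, 447, 153 and 62. A dim filter at the median left 92 falls of at least 2-fold. With each array left out in turn they ranged from 537 to 935 rises, from 250 to 732 falls, from 271 to 362 rises of at least 2-fold and from 106 to 244 falls of that size, the 244 without control replicate 2. With the replicate block, a fit by replicate number whose pairing is not established, the counts were 1209, 998, 311 and 150. With the same block, added after the data were seen, 1243 probe sets were higher in local and 1303 higher in systemic leaves, against 1084 and 1122 without it, and each of the 10 genes named as differing between local and systemic leaves kept its call. Of the 65 largest changes named, 52 kept their call in every alternative that tested them and none reversed. The median gap between the systemic arrays in called rises was 0.09 to 0.12 over its alternatives. A group left with 1 array is assumed to vary like the others. No detection calls were given, so levels near 4.4 may be background.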

Other observations

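Smaller families held mixed calls. Of 14 genes with a TON1 recruiting motif, which place microtubules, 3 rose (21.4%, beside 8.4% of all probe sets). TRM22 was at 6.99 and 7.04 in systemic leaves and 6.31 and 6.21 in control leaves (0.76), and TRM15 and TRM21 rose by 0.56 and 0.48. TRM22 was also lower in wounded than in systemic leaves (-1.08, adjusted p = 0.0012 by limma). TRM15 missed the threshold without systemic replicate 1 (adjusted p = 0.0573) or 2 (0.0511), and TRM21 without either (0.117 and 0.0589) or without control replicate 1 (0.0771). Of 29 serine carboxypeptidase-like genes, 3 rose by 0.49 to 0.55 and 1 fell by 0.43 (13.8%, beside 8.4% of all probe sets), and without control replicate 2 or systemic replicate 1 none passed.

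ESCRT-III proteins, which shape membranes into vesicles, moved in both directions. VPS20.1 was at 4.86 and 4.77 in systemic leaves, against 6.04 and 5.78 in control leaves (-1.095 ± 0.14, adjusted p = 0.0035 by limma), and VPS2.2 was at 5.29 and 5.60 in systemic leaves and 6.37 and 6.22 in control leaves (-0.85 ± 0.13, adjusted p = 0.0068). VPS2.1 rose by 0.52, but not without systemic replicate 1 (adjusted p = 0.134) or either control array (0.0663 and 0.0819). These families were grouped after their values were seen. IQD23, a calmodulin-binding protein, was at 8.76 and 8.70 in systemic leaves and 7.53 and 7.66 in control leaves (1.14 ± 0.11, adjusted p = 0.0012). XERICO, which raises abscisic acid, fell by 0.71 and missed the threshold without systemic replicate 1 (adjusted p = 0.0814).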
